A study of Mus musculus with 16 samples.

Results

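SINE Alu is the family name under which the deposited repeat table lists the mouse B1 elements, an abundant kind of short interspersed repeat. The copies described here were all SINE Alu rows with at least 5 reads in 2 or more of the 16 libraries. They numbered 139218 of 492046 SINE Alu copies, and the whole table held 4929385 repeat copies of all families, of which 1035541 met the same threshold. The copies were thus chosen by their measured read counts in these same libraries, so their levels are given below as a description, and the tests of the sums use all SINE Alu copies, with or without enough reads. Inside means that at least 1 base of the copy overlaps the span of a gene of the deposited gene table, from its first to its last exon, and outside means that none does.

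The study sequenced chromatin-associated RNA of E14TG2a cells, a mouse embryonic stem cell line that was grown with LIF at 1000 U/ml, the MEK inhibitor PD0325901 at 1 µM and the GSK3 inhibitor CHIR99021 at 3 µM. All 8 groups ectopically expressed a histone demethylase, and each group had 2 libraries. KDM4A and KDM4B remove methyl groups from H3K9 and H3K36, and KDM6A and KDM6B from H3K27. For each, a group with the full-length protein (FL) was set against a group whose protein lacked its intrinsically disordered region (IDR), which the sample titles call del-cIDR and the genotype labels del-IDR. The residues removed, the promoter, the species of the cDNA and whether lines were single clones are not given in the labels, and no group without a construct was analysed here. Nothing in the labels ties the 2 libraries of a group to separate cultures, and p-values below therefore rest on a spread between libraries that may be technical. The SMARTer kit keeps strand, but the authors' counting ignored it, so a read on a copy can come from either strand.

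B1 elements descend from 7SL RNA, the RNA of the signal recognition particle, and an intact copy carries an internal RNA polymerase III promoter made of an A box and a B box. Most copies are not transcribed from their own promoter. They lie in introns and flanks of genes and are read as part of longer RNA polymerase II transcripts, so reads on them in a chromatin fraction can come from unspliced RNA and from transcription that runs past gene ends.

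Sequences could be read for copies in exons of noncoding genes, because the GENCODE M21 transcripts in use here hold exons only. Of 774 exonic copies in noncoding genes, 504 were placed in a transcript. The placing used their distance from an exon end that the deposited annotation and the transcript share. The 774 leave out copies that also touch an exon of another class of gene, and copies on a chromosome that was not used. Coordinates below are GRCm39 from the deposited table, and letters are those of the GENCODE M21 transcript. Capitals mark the letters GTTCGANNC, searched as the core of the polymerase III B box, and each copy is shown 5′ to 3′ on its own strand. The copies shown are the most abundant one of the series and 3 that were called in KDM4A, chosen after their values were seen.
Malat1 copy, chr19:5851997-5852144, minus strand: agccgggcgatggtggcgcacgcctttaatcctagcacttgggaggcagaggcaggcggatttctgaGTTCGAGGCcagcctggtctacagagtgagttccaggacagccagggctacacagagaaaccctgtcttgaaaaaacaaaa
B230354K17Rik copy, chr17:45752957-45753107, plus strand: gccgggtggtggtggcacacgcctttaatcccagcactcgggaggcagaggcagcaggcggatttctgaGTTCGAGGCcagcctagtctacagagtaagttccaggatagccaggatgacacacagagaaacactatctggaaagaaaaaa
Kcnq1ot1 copy, chr7:142783738-142783866, minus strand: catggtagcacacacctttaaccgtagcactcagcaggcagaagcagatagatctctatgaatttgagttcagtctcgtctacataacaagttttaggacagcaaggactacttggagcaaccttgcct
C130013H08Rik copy, chr3:110158904-110159051, plus strand: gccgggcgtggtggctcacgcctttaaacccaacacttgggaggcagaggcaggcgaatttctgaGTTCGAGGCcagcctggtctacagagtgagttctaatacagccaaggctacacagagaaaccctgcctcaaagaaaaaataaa
Aligned locally to the Malat1 copy, the copies in B230354K17Rik, Kcnq1ot1 and C130013H08Rik were 86.8%, 72.7% and 89.3% identical. These values cover the best aligned stretch only, not the whole copies. The motif was present on the own strand of 40 of the 504 copies, which is 7.94%, and on the other strand of none. Among the 227 of them with at least 120 bases it was present in 34, or 15.0%. For comparison, windows of 115 bases from the 32851 promoters in RefSeq's promoter table held it on a given strand in 0.189% of cases. Each of these copies lies in an exon on the strand of its gene, so its reads are also reads of that gene's RNA.

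Those 4 copies differed in what they did. Malat1, an abundant nuclear noncoding RNA, gave its copy 343 and 394 CPM (reads per 1000000 effective gene reads) in the KDM4A FL libraries and 809 and 919 in the IDR-deleted ones. The copy in B230354K17Rik read 1.72 and 2.08 CPM in KDM4A FL and 0.378 and 0.582 in the IDR-deleted group, a log2 change of -2 ± 0.35 (standard error, adjusted p = 7.76e-06). Kcnq1ot1 is the noncoding RNA of an imprinted domain, and its copy read 1.09 and 1.17 CPM in KDM4A FL against 0 and 0.0685 CPM. The log2 change of the Kcnq1ot1 copy was -5.04 ± 0.70 (adjusted p = 3.99e-08) in KDM4A and -2.77 ± 0.40 (adjusted p = 4.92e-07) in KDM4B. With hardly any reads in the KDM4A IDR-deleted group, the size of the KDM4A change is uncertain. In contrast to these falls, the copy in C130013H08Rik rose in 3 of the 4 comparisons, by 1.76 ± 0.46 in KDM4A, 1.82 ± 0.53 in KDM4B and 1.68 ± 0.41 in KDM6B (adjusted p = 0.00319, 0.0254 and 0.00754). The FL and IDR-deleted libraries did not overlap in any of those calls.

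Of the 139218 copies, 121097 lay inside gene spans (87.0%) and 18121 outside, whereas 58.0% of all SINE Alu copies lay inside. By finer place, 10635 overlapped an exon, 110462 lay in an intron only, 9836 lay within 10 kb downstream of the nearest gene, 4867 within 10 kb upstream and 3418 farther away. Each copy inside was assigned to a single gene, the one with the most reads for the 8223 copies that overlap several. The copies inside were thus assigned to 13554 genes, and 116390 of them to protein-coding ones. Copies inside a single gene lay on its own strand in 47.1% of cases (53216 of 112874), against 44.7% for all SINE Alu copies. Outside copies had a median distance of 2919 bp to the nearest gene, against 8750 bp for all outside copies, and 64.7% of them lay on its downstream side, against 49.1%. Reads were more one-sided than copies, since 74.3% of the reads of the outside copies fell on the downstream side (72.2% for all outside copies).

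Most copies were weakly covered. The median over copies of the mean level of the 8 groups was 0.261 CPM for copies inside and 0.114 for copies outside, not adjusted for length. Only 18377 copies inside and 945 outside reached 1 CPM, and the highest levels were 426 and 36.4 CPM. The set held 97.7% to 98.3% of each library's SINE Alu reads, and 59.9% of its copies had reads in every library. Just inside the threshold, 7548 copies had exactly 5 reads in their second highest library and a median of 33 reads in all, and just outside it, 19012 copies had 4 and a median of 22. Another 221464 SINE Alu copies had no read in any library. Median length was 119 bases in the set and 128 bases over all SINE Alu copies.

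Libraries held 32739117 to 54890756 gene reads, 20313223 to 47548396 repeat reads and 2106437 to 5102473 SINE Alu reads, and log2 CPM of genes correlated at 0.980 to 0.988 within groups. Of the expressed demethylases, Kdm6a stood out in its own 4 libraries (415 to 441 CPM, against at most 156 elsewhere). Kdm4a, Kdm4b and Kdm6b in their own libraries were not all above the others (lowest own value 205, 85.4 and 78.0 CPM, highest elsewhere 272, 103 and 81.4), so for these the gene reads do not check the labels. The 8 stem cell markers summed to 1790 to 2692 CPM, with 3 rises and 4 falls in KDM4A and 2 and 5 in KDM4B. Other markers moved with some groups: the 5 primitive endoderm genes summed to 10.2 to 10.5 CPM in KDM4A FL and 30.2 to 30.7 in its IDR-deleted group (4 of 5 rose), and in KDM4B to 7.39 to 8.03 and 13.6 to 14.1 (3 of 5 rose). The 4 trophectoderm genes summed to 6.47 to 18.5 CPM, with Cdx2 at 0 to 0.205 CPM, and 2 of the 3 tested rose in KDM4A and in KDM4B. The 7 fibroblast genes summed to 3.49 to 8.15 CPM, with Dcn at most 0.0607 and Lum at most 0.0223 CPM, and 1 of the 3 tested rose in KDM4A and in KDM6B. The 4 neural genes summed to 75.8 to 149 CPM, of which Nes made up 59.3 to 125, and 3 rose in KDM4A and in KDM6B and 3 fell in KDM4B. With ERCC sizes these counts changed: of the neural genes 1 rose and 2 fell in KDM4A and 0 and 2 in KDM6B, of the stem cell markers 1 rose and 6 fell in both KDM4A and KDM4B, of the trophectoderm genes 1 rose and 1 fell in KDM4A, of the fibroblast genes 0 rose in KDM4A, and 3 and 2 primitive endoderm genes rose in KDM4A and KDM4B. The 4 genes of the 2-cell-like state summed to 161 to 174 CPM in KDM4A FL against 44.0 to 44.3, and to 176 to 182 in KDM4B FL against 62.5 to 67.6, with all 4 and 3 of 4 falling. The part of these cell states in the results below was not tested, and in bulk RNA fewer cells of a kind and less RNA per cell cannot be told apart.

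Deleting the IDR of KDM4A went with a loss of SINE Alu reads outside genes. The FL libraries had 6203 and 6382 CPM on copies outside and the IDR-deleted ones 3774 and 3877, a drop to 0.608 of the FL mean, while copies inside went from 74640 and 76446 to 66974 and 68243 CPM, or 0.895 of the mean. All 4 IDR-deleted values lay below all FL values for their place. Outside copies made up 7.67% and 7.70% of the SINE Alu reads in the FL libraries and 5.33% and 5.38% in the IDR-deleted ones (7.69% ± 0.0224 and 5.36% ± 0.0295, SD, n = 2). The ratio of outside to inside reads, which needs no library size, fell by 0.56 ± 0.02 on the log2 scale (limma, adjusted p = 2.98e-09), in a comparison in which 82.1% of the 39 families tested were called. In the fit of 114 family-by-place sums, of which 77.2% were called, the outside reads fell by 0.72 ± 0.02 (adjusted p = 6.83e-11). Inside reads fell by 0.16 ± 0.03 (adjusted p = 1.41e-04) with library sizes from genes, but rose by 0.14 with sizes from repeat families. The fall outside kept its direction and its call under all 4 sets of library sizes.

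**Figure D1:**
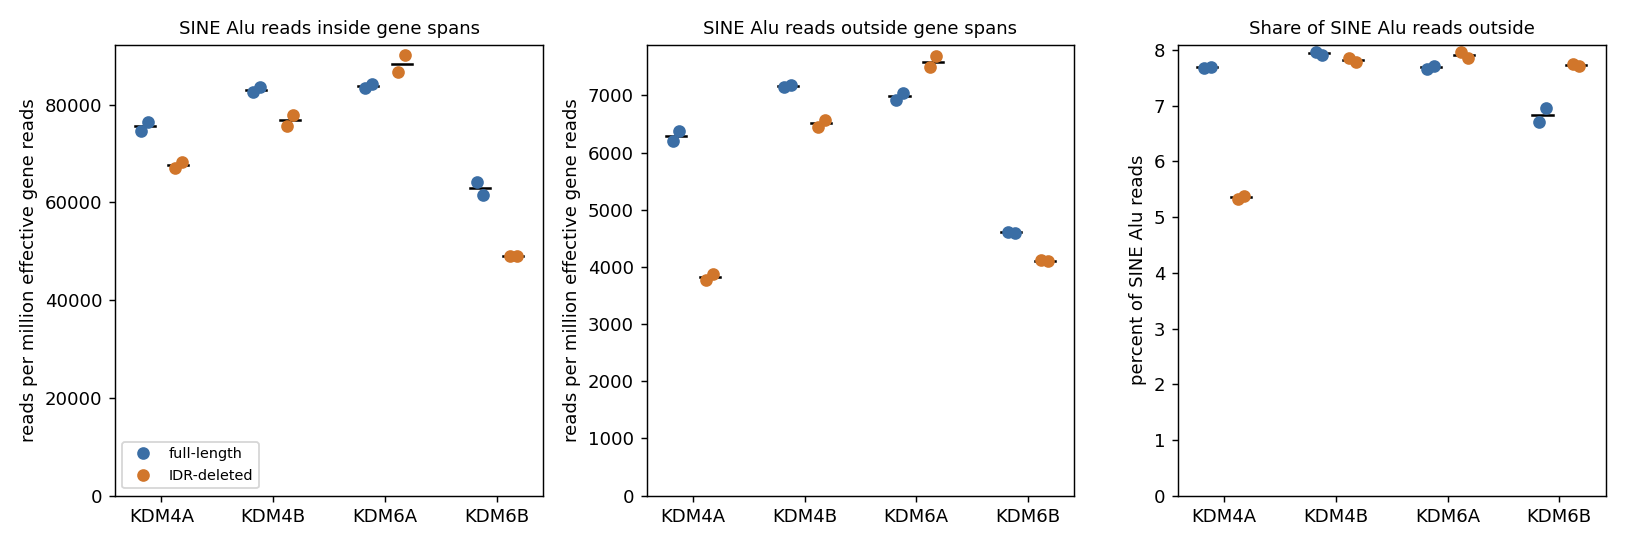
SINE Alu reads per library inside gene spans (left) and outside (middle), in reads per 1000000 effective gene reads, and the percent of SINE Alu reads outside (right), for 4 demethylases. Points are libraries, blue for full-length and orange for IDR-deleted, and bars are means of 2. The KDM4A IDR-deleted libraries are at 5.33% and 5.38% outside, below the other 14, which run from 6.71% to 7.97%; directions of the KDM4B, KDM6A and inside KDM4A levels, and of the KDM6B level outside, change with other library sizes.

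KDM4B differed from KDM4A. Copies outside had 7142 and 7181 CPM in the FL libraries and 6445 and 6575 in the IDR-deleted ones, and copies inside 82557 and 83534 against 75609 and 77950. The groups did not overlap in either place, and both means were lower by a similar factor, 0.909 outside and 0.925 inside. Accordingly the share outside was 7.96% and 7.92% against 7.85% and 7.78%, and the ratio of outside to inside reads did not pass the test (-0.02 ± 0.02, adjusted p = 0.402, 35.9% of families called). With spans extended by 5 kb the ratio was -0.21 ± 0.03 and called (adjusted p = 5.54e-05). With gene-based sizes both sums were called (52.6% of sums called), outside at -0.14 ± 0.02 and inside at -0.11 ± 0.03 (adjusted p = 2.86e-04 and 0.00325). But with sizes from repeat families they were +0.04, not called, and +0.06, called.

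KDM6A showed small rises. Its FL libraries had 6925 and 7042 CPM outside and 83416 and 84185 inside, and its IDR-deleted ones 7493 and 7693 outside and 86574 and 90195 inside. The IDR-deleted values were the higher ones in both places, without overlap. With gene-based sizes only the sum outside passed the test, at 0.12 ± 0.02 (adjusted p = 0.00449, 16.7% of sums called), and it was -0.09 with sizes from ERCC RNAs, spike-in RNAs that the labels do not mention. Its call was also lost with sizes from repeat families (0.061, adjusted p = 0.311), with spans extended by 5 kb (0.11, adjusted p = 0.0510) and without FL replicate 1 (adjusted p = 0.0661) or IDR-deleted replicate 2 (adjusted p = 0.0623). The sum inside was 0.08 ± 0.03 (adjusted p = 0.0665), and it was called with the replicate number as a block (0.077, adjusted p = 0.0398), with median-ratio sizes (adjusted p = 0.0419), with only the copies of the set (adjusted p = 0.0417) and without IDR-deleted replicate 1 (0.11, adjusted p = 0.0380). The share outside went from 7.67% and 7.72% to 7.97% and 7.86%, and the ratio did not pass (0.04 ± 0.02, adjusted p = 0.184), as no family did in this comparison (0% of 39 called by limma).

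With gene-based sizes both sums fell in KDM6B, as in KDM4A, but the ratio of outside to inside rose. Inside copies had 64160 and 61513 CPM in the FL libraries and 49031 and 49033 in the IDR-deleted ones, 0.780 of the FL mean, and outside copies 4614 and 4599 against 4116 and 4098, 0.892 of it. Again no IDR-deleted value reached an FL value. Because the drop was larger inside, the share outside rose, from 6.71% and 6.96% to 7.74% and 7.71%, and the log2 ratio rose by 0.19 ± 0.02 (adjusted p = 4.29e-05, 56.4% of families called). The sums fell by 0.36 ± 0.03 inside and 0.17 ± 0.02 outside (adjusted p = 3.29e-07 and 4.88e-05, 50.9% of sums called), yet with sizes from repeat families the inside sum was -0.02 and the outside sum +0.17. The full-length KDM6B libraries had the lowest share outside of any FL group.

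The differences between the demethylases were tested directly. The change outside was lower by 0.58 ± 0.03 in KDM4A than in KDM4B (log2, -0.58, adjusted p = 5.13e-08, 53.5% of sums called), whereas inside the difference was -0.05 ± 0.04 (adjusted p = 0.309). That inside difference depended on library sizes. By edgeR it was -0.51 with ERCC sizes (adjusted p = 1.97e-06) and 0.076 with sizes from repeat families (adjusted p = 0.0253), both called. For the ratio of outside to inside, KDM4A minus KDM4B was -0.53 ± 0.03 (adjusted p = 1.10e-07, 76.9% of families called). KDM6A minus KDM6B was 0.29 ± 0.03 outside and 0.43 ± 0.04 inside (adjusted p = 1.23e-05 and 2.21e-06, 53.5% of sums called), and -0.15 ± 0.03 for the ratio (adjusted p = 0.00284, 30.8% of families called). With sizes from repeat families the KDM6 difference outside turned to -0.11 and the inside one was no longer called (0.04), while the ratios do not depend on sizes. Single copies whose changes differed by edgeR at an adjusted p under 0.05 numbered 2006 inside and 585 outside between KDM4A and KDM4B. That was 2.20% and 6.08% of those tested, where 3.16% and 7.13% of copies of all families were called. Between KDM6A and KDM6B they numbered 1528 and 86, or 1.68% and 0.893%, where 2.35% and 1.32% were called over all families.

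Over the 4 demethylases together no common shift in place was found. The mean difference in the share outside, IDR-deleted minus FL, was -0.335 percentage points (two-sided exact permutation within demethylase, p = 0.321, with 1296 labelings and a smallest possible p of 0.00154), and without KDM4A it was 0.331 points (p = 0.0833 by the exact permutation test). SINE Alu held 9.84% to 10.9% of all repeat reads in every library, and the mean difference in that share was -0.0633 points (exact permutation p = 0.593). Without KDM6B it was 0.208 points (exact permutation p = 0.0278), so the pooled value rests on that demethylase.

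SINE B2 and SINE B4 were set beside these values in KDM4A and KDM6B, and SINE families with fewer copies are not given here. In KDM4A the log2 ratio of outside to inside reads was -0.13 ± 0.05 for SINE B2 and -0.44 ± 0.09 for SINE B4 (adjusted p = 0.0418 and 0.00146), against -0.56 ± 0.02 for SINE Alu. In KDM6B it was 0.48 ± 0.05 for B2 and 0.24 ± 0.09 for B4 (adjusted p = 4.48e-05 and 0.054), against 0.19 ± 0.02 for SINE Alu. The 3 families were on the same side of 0 in both comparisons, B4 in KDM6B without passing the test, and whether their sizes differ was not tested.

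By place, all 5 zones were lower in KDM4A with gene-based sizes, those outside genes by more than introns and exons. Downstream within 10 kb the FL libraries had 3852 and 3949 CPM and the IDR-deleted ones 2244 and 2251, a log2 change of -0.80 ± 0.02 (adjusted p = 1.31e-12, 71.6% of family-by-zone sums called). Farther than 10 kb it was -0.69 ± 0.03, upstream within 10 kb -0.54 ± 0.04, in introns -0.17 ± 0.03 and in exons -0.07 ± 0.03 (adjusted p = 3.68e-10, 2.10e-08, 5.31e-05 and 0.033). The 3 outside zones kept their direction and call under all 4 sets of library sizes, but introns and exons turned to +0.13 and +0.23 with sizes from repeat families. In KDM4B the far zone stood apart at -0.40 ± 0.03 (adjusted p = 3.43e-07, 46.4% of sums called), and it kept its direction under all sizes, while exons, introns, downstream and upstream zones were between -0.07 and -0.13 and turned positive with sizes from repeat families. In KDM6A only the downstream zone was called, at 0.13 ± 0.02 (adjusted p = 0.00267, 11.1% of sums called), and it was -0.08 with ERCC sizes. In KDM6B introns fell most, by 0.39 ± 0.03, then downstream (-0.23 ± 0.02) and exons (-0.19 ± 0.03), with adjusted p = 1.11e-07, 1.02e-06 and 8.81e-05 (40.2% of sums called), whereas upstream (-0.05 ± 0.04) and far zones (-0.06 ± 0.03) did not pass, and with sizes from repeat families only introns stayed negative.

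**Figure D2:**
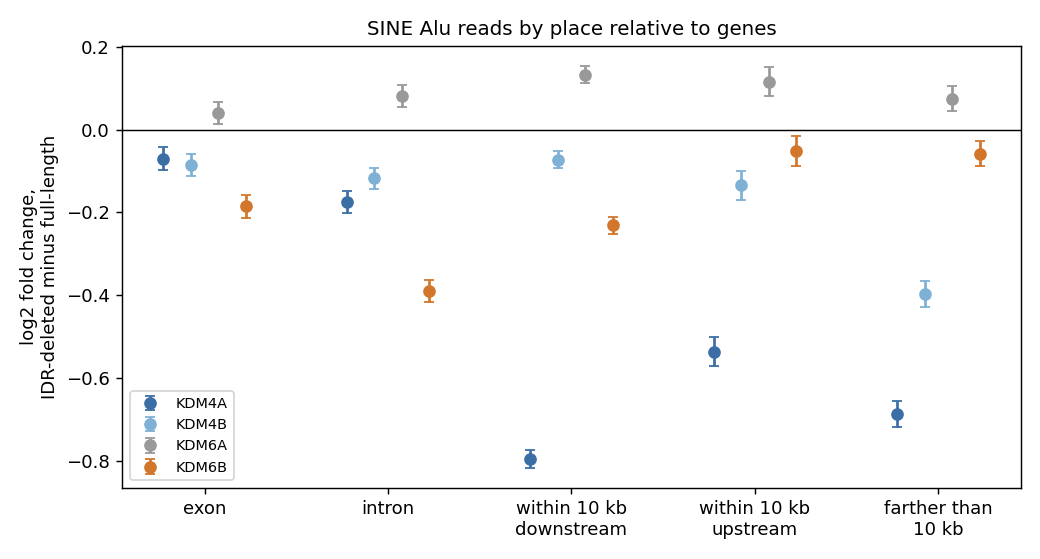
Log2 fold change of SINE Alu reads, IDR-deleted minus full-length, by place relative to genes, with library sizes from genes; points are estimates and bars standard errors from a fit of all 16 libraries. KDM4A lies at -0.80, -0.54 and -0.69 in the 3 zones outside genes and at -0.07 and -0.17 in exons and introns, the latter pair turning positive with sizes from repeat families, as do all KDM6B zones but introns and all KDM4B zones but the far one; all KDM6A zones turn negative with ERCC sizes.

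Finer bins of distance are a description without a test. In KDM4A the log2 ratio of group means was between -0.71 and -0.99 in the 5 bins downstream of the nearest gene and between -0.46 and -1.05 in the 5 bins upstream, and the libraries of the 2 groups overlapped in no bin. The falls were not largest at gene ends: the ratio was -0.76 within 1 kb downstream, -0.99 from 5 to 10 kb downstream and -1.05 beyond 50 kb upstream. In KDM4B it went from -0.06 within 1 kb downstream to -0.54 beyond 50 kb, and from -0.09 to -0.59 upstream. The bins beyond 50 kb held only 197 and 159 copies of the set. KDM6A was positive in all 10 bins (0.05 to 0.18) with overlapping libraries in 1 of them. KDM6B was lowest within 1 kb downstream (-0.25) and near 0 beyond 50 kb. All bins use gene-based sizes. ERCC sizes shift KDM6A by about -0.21, and sizes from repeat families shift KDM4B and KDM6B by about 0.18 and 0.33. The sign of bin values smaller than these shifts therefore depends on the sizes.

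**Figure D3:**
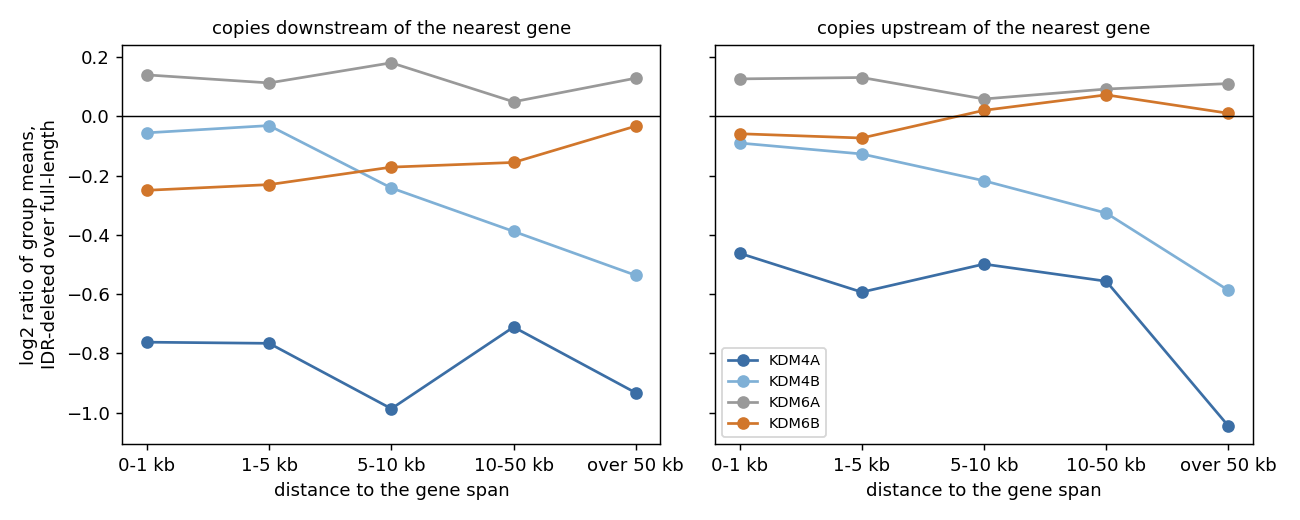
Log2 ratio of the group means of SINE Alu reads outside genes, IDR-deleted over full-length, by distance to the gene span, for copies downstream (left) and upstream (right) of the nearest gene; points have no error bars, and lines only join bins. KDM4A is below -0.46 in every bin, and KDM4B goes from near 0 within 1 kb to -0.54 and -0.59 beyond 50 kb, with library sizes from genes.

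Reads on intronic copies came more often from copies on the strand of their gene than from the opposite one. The share on the gene's strand was 54.9% to 58.8% per library. KDM4A libraries went from 56.1% in both FL libraries to 58.1% and 58.8%, KDM4B from 55.6% and 56.4% to 56.6% and 56.9%, and KDM6B from 56.8% and 58.2% to 58.6% and 58.7%. In KDM6A the groups overlapped, at 54.9% and 55.6% against 55.8% and 55.5%.

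Single copies were then tested, 91056 SINE Alu copies inside and 9629 outside, in a fit of 728423 copies of all families. They are not independent, since copies in a gene share its transcripts. In KDM4A, 1974 of the outside copies fell and 148 rose, that is 20.5% and 1.54%, where over all families 27.3% of outside copies fell and 1.56% rose. Inside, 9269 fell and 3177 rose, 10.2% and 3.49%, where over all families 13.8% fell and 3.54% rose. SINE Alu copies were therefore called lower no more often than repeat copies in general. The median log2 change was -0.94 outside and -0.25 inside. Falls were 74.5% of the calls inside, but 42.7% with sizes from repeat families and 98.0% with ERCC sizes, and 93.0% of the calls outside.

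Calls were fewer for the other demethylases. KDM4B had 1434 falls and 561 rises inside (over all families 2.9% fell and 0.93% rose, for SINE Alu 1.57% and 0.616%) and 244 falls and 112 rises outside (7.51% and 1.66% over all families, 2.53% and 1.16% for SINE Alu). Falls were 71.9% of its calls inside and 68.5% outside, or 34.7% and 46.5% with sizes from repeat families and 92.2% and 85.6% with ERCC sizes. For KDM6A edgeR called 21 rises and 21 falls inside and 1 rise and 3 falls outside (over all families 0.0807%, 0.0374%, 0.25% and 0.0617%). At an unadjusted p under 0.05 by edgeR there were 4923 of 91056 and 514 of 9629. Those counts are near the share that a threshold of 0.05 passes with no change at all. DESeq2 called 100 and 12 (0.110% and 0.125%). Falls and rises were equal in number inside, while falls made up 79.5% of the calls with sizes from repeat families and 98.7% with ERCC sizes, and 75% outside, 100% with either. KDM6B had 3001 falls and 50 rises inside (4.49% and 0.199% over all families, 3.30% and 0.0549% for SINE Alu) and 124 falls and 21 rises outside (1.37% and 1.02% over all families). Falls were 98.4% of the KDM6B calls inside and 85.5% outside, but 66.4% and 21.4% with sizes from repeat families.

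**Figure D4:**
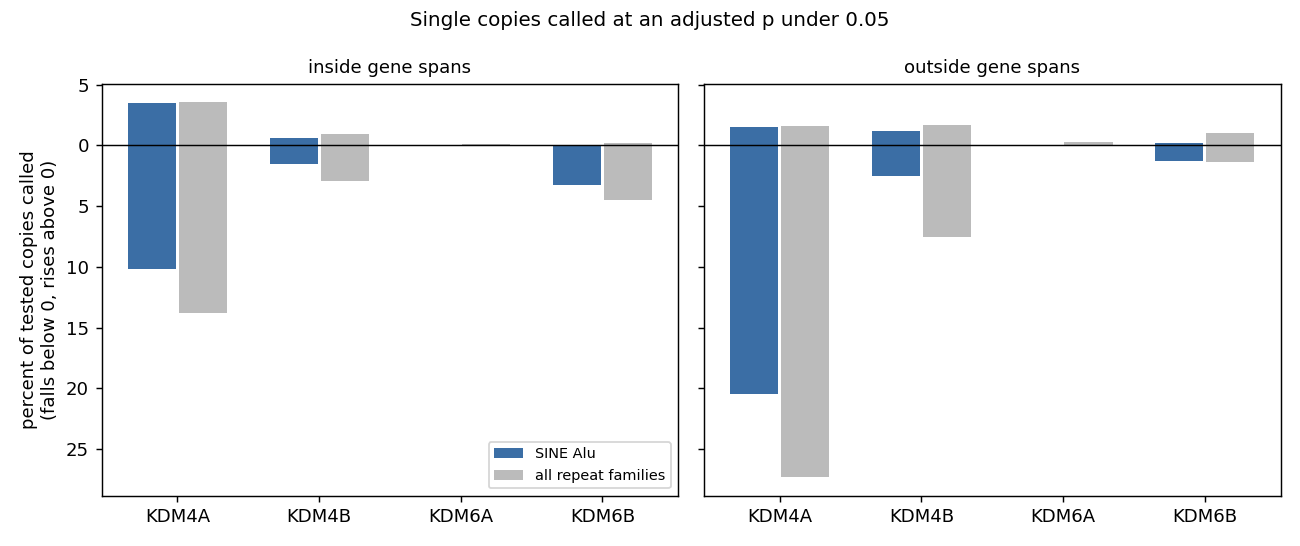
Percent of tested single copies called at an adjusted p under 0.05, rises above and falls below 0, inside (left) and outside gene spans (right), for SINE Alu (blue) and all repeat families (grey), with library sizes from genes. In KDM4A 20.5% of SINE Alu copies outside fell against 27.3% of all copies; the balance of rises and falls moves with the library sizes, as the values in the text show.

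A called copy was compared with the gene that holds it, whose reads were counted on exons. Copies that overlap exons were kept (8574 of the 91056 tested inside, 988 of them falling in KDM4A). Their reads also count for the gene, so their agreement with it is partly fixed in advance. Of the 8549 copies inside a single gene that fell in KDM4A, the gene fell in 64.4% and rose in 17.5% of cases and was not called in 17.8%. Over all 84877 copies tested inside a single gene, the gene fell for 29.9% and rose for 46.6% (over all genes 25.9% fell and 24.6% rose). Copies that fell inside genes that rose numbered 1499. All these calls use gene-based sizes. ERCC sizes shift KDM4A by -0.65 (median gene -0.70), so which genes count as rising depends on the sizes. The comparison of copies with genes was not repeated with other sizes. In KDM4B 89.4% of 1327 falling copies lay in genes that fell, against 30.3% of all tested copies, and in KDM6B 46.3% of 2814, against 22.9%, with 50.4% in genes not called. For copies within 10 kb downstream that fell in KDM4A, 1266 in all, the nearest gene fell for 49.6%, rose for 26.5% and was not called for 23.0%. Over all 5916 copies tested there, it fell for 30.7% and rose for 38.7%. In KDM4B 98 of 108 such copies lay past genes that fell, against 26.8% of all tested there.

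The most abundant copies outside genes mostly lie just past gene ends. Zfp42 (ENSMUSG00000051176) encodes Rex1, a marker of naive embryonic stem cells, and a 143-base copy at chr8:43747748-43747890 lies 210 bp downstream of it. This copy had 48.6 and 47.3 CPM in KDM4A FL against 16.4 and 14.9, and 60.0 and 51.8 in KDM4B FL against 33.9 and 31.9. The groups were far apart in both, with log2 changes of -1.61 ± 0.11 (adjusted p = 2.34e-20) and -0.76 ± 0.11 (adjusted p = 1.38e-07), beside changes of the gene of -0.59 and -0.65. Past Actb, the gene of cytoplasmic actin, a copy at chr5:142887538-142887676 (1194 bp downstream) had 20.3 and 20.2 CPM in KDM4A FL and 8.09 and 8.15 in the IDR-deleted group. It fell by 1.32 ± 0.12 (adjusted p = 4.77e-14), while the gene was at -0.06 (adjusted p = 0.139). Past Hnrnpa1, which encodes an RNA-binding protein of splicing, a copy at chr15:103155573-103155714 (454 bp downstream) went from 15.3 and 15.2 CPM to 5.68 and 4.45 in KDM4A, a change of -1.59 ± 0.15 (adjusted p = 3.24e-14) beside -0.11 for the gene. The same copy went from 17.5 and 14.4 CPM to 27.0 and 21.4 in KDM6A, a rise of 0.60 ± 0.14 (adjusted p = 0.0297). That call was lost with ERCC and family sizes and without either FL or the first IDR-deleted library.

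The remaining abundant outside copies behaved differently. A copy 582 bp upstream of the microRNA gene Mir337, at chr12:109551523-109551641, had 23.1 and 24.6 CPM in KDM4A FL and 19.1 and 23.2 in the IDR-deleted group, overlapping values (-0.18 ± 0.12, adjusted p = 0.332), and fell by 0.52 ± 0.12 in KDM4B (adjusted p = 0.00313, lost with sizes from repeat families and without the second FL or the first IDR-deleted library). A copy on chromosome Y, 34678 bp from Gm21860, had 33.5 and 32.0 CPM in KDM4A FL and 17.5 and 7.50 in the IDR-deleted group. Its log2 change of -1.38 ± 0.34 (adjusted p = 0.0242) was lost without either FL library, in a fit of the 4 KDM4A libraries alone and with sizes from repeat families.

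**Figure D5:**
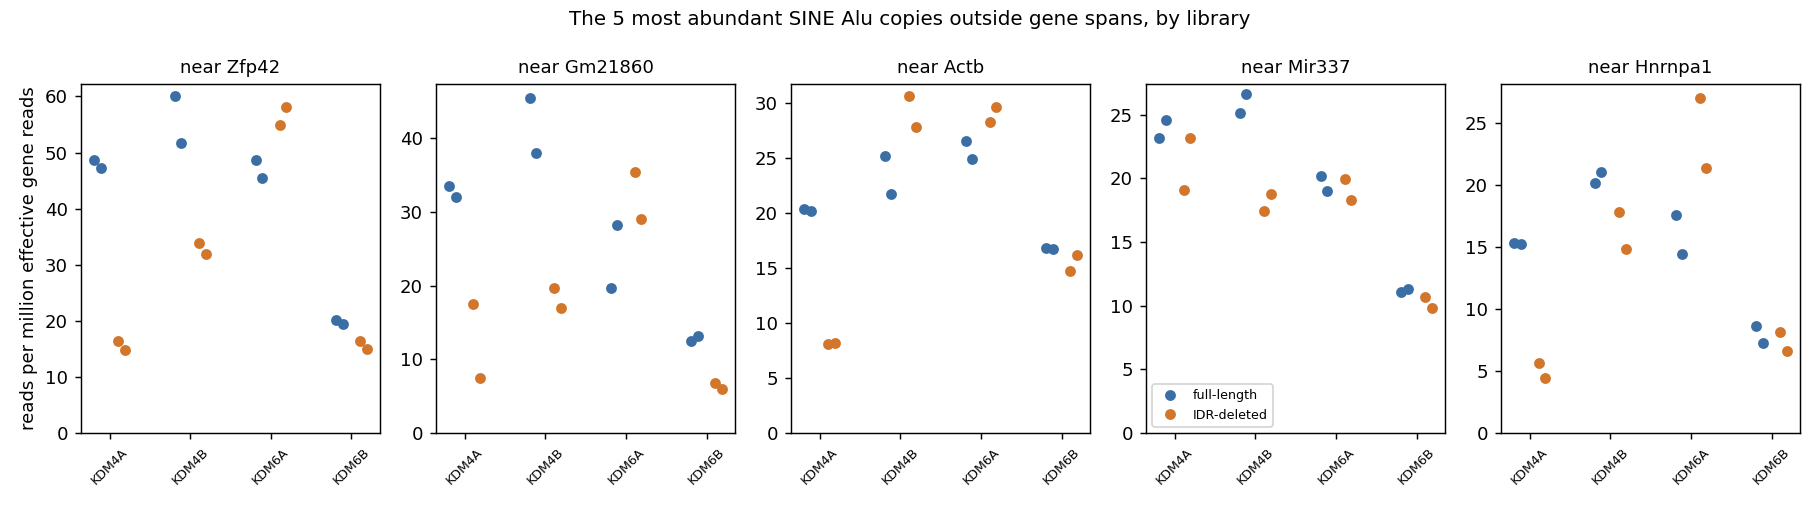
Reads per 1000000 effective gene reads of the 5 most abundant SINE Alu copies outside gene spans in each of the 16 libraries, blue for full-length and orange for IDR-deleted; each panel starts at 0. The copies near Zfp42, Actb and Hnrnpa1 are lower in both KDM4A IDR-deleted libraries than in both full-length ones (for Actb 8.09 and 8.15 against 20.3 and 20.2), and the copy near Mir337 overlaps.

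Inside genes the most abundant copy is the one in Malat1 shown above. Its rise in KDM4A was 1.23 ± 0.32 (adjusted p = 0.0283), not called when any of the 4 libraries was left out or with ERCC sizes, and its gene rose by 0.64. In KDM4B FL that copy had 295 and 286 CPM against 213 and 398 in the IDR-deleted group, which overlap. Tcf7l1 encodes a repressor of the pluripotency network downstream of Wnt, and an intronic copy at chr6:72761768-72761878 had 49.1 and 52.5 CPM in KDM4A FL against 20.5 and 23.5, and 74.5 and 81.6 in KDM4B FL against 40.9 and 44.4. It fell by 1.21 ± 0.10 (adjusted p = 1.54e-15), more than its gene (-0.59), and by 0.87 ± 0.10 in KDM4B (adjusted p = 6.58e-10). An intronic copy of Zfp42 at chr8:43758743-43758903 fell by 0.77 ± 0.10 in KDM4A and 0.84 ± 0.10 in KDM4B (adjusted p = 5.02e-09 and 8.75e-10). A copy in an exon of Triml2, at chr8:43638563-43638704, overlapped between the KDM4A groups, with 64.1 and 57.6 CPM against 63.1 and 54.4. An intronic copy of Gm47283 on chromosome Y fell in KDM4A, KDM4B and KDM6B by 0.88 ± 0.10, 0.99 ± 0.10 and 0.88 ± 0.10 (adjusted p = 6.41e-11, 2.43e-12 and 5.17e-09), and was 0.05 ± 0.10 in KDM6A.

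The largest single changes were in copies that had no or hardly any reads in the lower group, so they are given as bounds against 3 reads over that group. In KDM4A, an intronic copy of Ints6, a subunit of the Integrator complex, at chr14:62968344-62968471 went from 1.47 and 0.708 CPM (63 and 35 reads) to 0 in both IDR-deleted libraries, at least 22.5-fold lower (adjusted p = 6.59e-09), beside -1.25 for the gene. Intronic copies of Gm39132 and Qser1 also had no read in the IDR-deleted group and were at least 19.9-fold and 16.7-fold lower. Outside, a copy 1149 bp upstream of Gtsf1, a factor of the piRNA pathway, was at least 15.6-fold lower (adjusted p = 5.13e-07) with its gene at -0.09 (adjusted p = 0.677), and copies 35217 bp upstream of Hdac2 and 4571 bp downstream of Lig1 were at least 14.4-fold and 13.5-fold lower. Hdac2 itself, a histone deacetylase, rose by 0.47 with gene-based sizes, while ERCC sizes shift KDM4A by -0.65.

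Rises in KDM4A were of like size. A copy in an intron of Pbld2 had 2 reads in the FL group and 46 in the IDR-deleted one, a ratio of 33.4 per effective depth (95% counting interval 8.75 to 284), while the gene was at 0.04 (adjusted p = 0.925). Copies in introns of Slc5a2 and Pde4dip gave ratios of 32.0 (10.5 to 159) and 27.1 (8.82 to 136). Outside, copies upstream of Gm45908 and Uri1 went from 5 and 4 reads to 119 and 88, ratios of 34.6 and 32.0, and a copy 457355 bp from Gm22223 from 2 reads to 61 (44.3, interval 11.8 to 374). Intervals and bounds cover counting error only and are too narrow, because both reads of a pair entered the counts.

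In KDM4B the largest rises inside were exonic copies of Snx20 and Xlr3a, which had no read in the FL group and were at least 19.2-fold and 18.9-fold higher, with their genes up by 1.98 and 2.78. An intronic copy of Limch1 rose from 2 to 42 reads (17.1, interval 4.44 to 145). Among falls, a copy in Gm40663 had no read left and was at least 20.5-fold lower. Copies in Etl4 and 4930414F18Rik went from 78 reads to 2 (48.0, interval 12.9 to 404) and from 99 to 3 (40.6, interval 13.5 to 200). Outside, a copy near Gm7199 on chromosome X went from 156 reads to 2 (96.1, interval 26.1 to 800), and copies near Gm11307 and Atp6v0c-ps2 had no read left and were at least 19.3-fold and 16.4-fold lower. Rises outside were near 1700029M20Rik (25.2, interval 6.68 to 212), Pvrig (18.1, interval 5.95 to 90.2) and Idh3b. The last rests on 1 library, with 0.122 and 0.131 CPM in KDM4B FL and 4.19 and 0.221 in the IDR-deleted group, and a log2 change of 0.79 without the first IDR-deleted library against 4.09 with it. The calls in Gm40663, Etl4 and Limch1 and near Gm11307 and Atp6v0c-ps2 were also lost when some single KDM4B library was left out.

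In KDM6A the copies named inside were rises in introns of Rbms2, N4bp2 and Dnajb6 by 5.73, 3.96 and 2.79-fold and falls in Fgfr2 and Herpud1 by 4.50 and 3.81-fold. Outside, copies near AC149090.1 and Top1mt fell 2.33-fold and 1.93-fold. All of these were lost when some single library was left out, those in Rbms2, N4bp2, Dnajb6 and Fgfr2 and near AC149090.1 and Top1mt for any of the 4. In KDM6B an intronic copy of Slco1c1, which encodes a thyroid hormone transporter, rose from 2 reads to 56 (26.1, interval 6.90 to 221) with its gene up by 2.98, and copies in Xlr3c and Mast1 rose 9.88-fold and 8.02-fold. Intronic copies of Rufy3, Lrrfip2 and Celf1 fell 11.5-fold, 11.2-fold and 10.7-fold. Of these 3 genes, Rufy3 and Lrrfip2 were not called (0.08 and 0.13). Outside, copies downstream of Kpna4, Myo10 and Kcmf1 fell 14.7-fold (interval 4.68 to 74.0), 7.15-fold and 5.61-fold, and copies downstream of Gm36634, Gm8134 and Gata3 rose 6.18-fold, 3.73-fold and 3.24-fold. The rise 282 bp past Gata3 came with a fall of the gene by 0.54. Leaving out a single KDM6B library ended the calls in Xlr3c and Mast1 and near Gm8134 whichever it was, and those in Rufy3 and Celf1 and near Gata3, Gm36634 and Myo10 for some.

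Long genes hold the most copies. Macf1, which encodes a giant protein that links actin and microtubules, held 149 copies of the set in a span of 338 kb on chromosome 4, and 64 of the 129 tested fell in KDM4A while none rose. Summed, its copies went from 216 ± 2.32 CPM (SD, n = 2) to 107 ± 2.05 in KDM4A, and from 259 ± 3.36 to 190 ± 0.363 in KDM4B. Its exon reads were at 0.06 in KDM4A (adjusted p = 0.0301) and -0.25 in KDM4B. Rere, a transcriptional corepressor, held 136 copies, and of the 118 tested 15 fell and 1 rose in KDM4A with the gene at 0.04 (adjusted p = 0.453). Bcas3 (123 copies, 107 tested), Smg6 (107, 87 tested) and Map4 (105, 95 tested) had 21, 11 and 30 falls in KDM4A. Smg6, which takes part in nonsense-mediated decay, had 4 rises and summed copies at 72.5 ± 2.32 and 73.5 ± 4.79 CPM. Over all families 13.8% of copies inside fell in KDM4A, and the falls in Rere and Smg6 were near that share. In KDM6A no copy in these 5 genes was called by edgeR, where over all families 0.0807% of copies inside rose and 0.0374% fell. In KDM6B the falls numbered 3, 6, 1, 4 and 14, with no rise, where 4.49% fell over all families.

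Genes that make, bind or silence SINE RNA were read from exon counts. The lists were chosen with earlier results of these data known, and 50.5%, 36.2%, 16.9% and 20.6% of 31057 genes were called in KDM4A, KDM4B, KDM6A and KDM6B (rises 24.6%, 18.6%, 8.3% and 9.89%, falls 25.9%, 17.6%, 8.65% and 10.7%). Of 21 genes of RNA polymerase III and its factors, 8 rose and 6 fell in KDM4A, 6 and 5 in KDM4B, 7 and 1 in KDM6A, and 0 and 6 in KDM6B. With ERCC sizes, under which the median of all genes was at -0.70, -0.18, -0.21 and -0.38 in the same order, 1 rose and 17 fell in KDM4A, 1 and 12 in KDM4B, 0 and 5 in KDM6A, and 0 and 19 in KDM6B. With gene-based sizes their median log2 change was 0.05, -0.02, 0.12 and -0.11, against -0.05, 0.01, 0.00 and 0 over all genes. In KDM4A, Gtf3c5, a subunit of TFIIIC, which binds the B box, rose by 1.14 ± 0.07 (28.5 ± 0.194 to 62.9 ± 0.587 CPM, SD, n = 2), and Polr3c, a polymerase subunit, fell by 0.98 ± 0.07 (40.3 ± 0.309 to 20.4 ± 1.38 CPM). Gtf3c1 and Bdp1 rose by 0.59 ± 0.04 and 0.45 ± 0.04 but turned to -0.07 and -0.20 with ERCC sizes. Elsewhere Polr3a and Gtf3c6 fell in KDM4B by 0.41 ± 0.05 and 0.57 ± 0.07. Gtf3c1 and Polr3c fell in KDM6B by 0.28 ± 0.04 and 0.46 ± 0.07. Gtf3c6 rose in KDM6A by 0.39 ± 0.07, a rise that was not called with ERCC sizes.

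Among 15 genes that bind or process SINE RNA, 10 rose and 2 fell in KDM4A, 7 and 4 in KDM4B, 3 and 1 in KDM6A, and 2 and 1 in KDM6B, with medians of 0.27, 0.15, 0.07 and -0.02. With ERCC sizes the balance turned, to 1 rise and 9 falls in KDM4A, 1 and 5 in KDM4B, 0 and 7 in KDM6A, and 0 and 14 in KDM6B. Ssb, the La protein that binds polymerase III transcripts, rose by 0.71 ± 0.04 in KDM4A, Dicer1 by 0.69 ± 0.04, Ilf2 by 0.79 ± 0.05 and the RNA-editing enzyme gene Adarb1 by 0.73 ± 0.06. None of these 4 stayed called with ERCC sizes (0.06, 0.04, 0.13 and 0.08). Srp14, which as part of the signal recognition particle also binds Alu RNA, rose by 0.59 ± 0.07 in KDM4B and by 0.42 ± 0.07 in KDM6B. Its KDM6B rise was not called with ERCC sizes.

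Of 14 genes that silence repeats, 7 rose and 5 fell in KDM4A, 1 and 8 in KDM4B, 5 and 0 in KDM6A, and 1 and 3 in KDM6B, with medians of 0.16, -0.23, 0.12 and 0.03. With ERCC sizes it was 0 and 11 in KDM4A, 0 and 12 in KDM4B, 1 and 4 in KDM6A, and 0 and 13 in KDM6B. Suv39h1, an H3K9 methyltransferase, fell by 1.14 ± 0.07 in KDM4A, 0.77 ± 0.06 in KDM4B and 0.18 ± 0.07 in KDM6B, and rose by 0.44 ± 0.06 in KDM6A. Dnmt1, the maintenance DNA methyltransferase, rose by 0.53 ± 0.03 in KDM4A, but was at -0.12 with ERCC sizes. In KDM4B the heterochromatin protein gene Cbx5 fell by 0.52 ± 0.04, Trim28, the corepressor of KRAB zinc finger proteins, by 0.31 ± 0.03 and Uhrf1 by 0.32 ± 0.04. Trim28 rose by 0.27 ± 0.03 in KDM6A. In KDM6B Cbx1 rose by 0.33 ± 0.05 (-0.05 with ERCC sizes) and Chd4, the remodeller of the NuRD and ChAHP complexes, fell by 0.25 ± 0.03.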

How the data were processed

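Raw read counts per gene and per repeat copy were deposited by the authors, made with featureCounts 2.0.3 without use of strand, at a mapping quality of at least 30 and with each read of a pair counted, per the file headers. HISAT2 and GRCm39 come from the submitters' processing notes, and the handling of reads with several alignments is not given in the sources used here, which matters for near-identical copies. Gene counts are exon reads, so copies in exons share reads with their gene.

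Sums by family and place, genes and single copies were fitted with edgeR 4.0.16 (quasi-likelihood, 8 group means, TMM sizes over genes, Benjamini-Hochberg over the whole table, threshold 0.05), and outside-to-inside ratios with limma 3.58.1 on log2 ratios with a pseudocount of 1 read. Scripts were tested on simulated data. In 50000 simulated copies, 100 changed 4-fold and 100 changed 2-fold, and the KDM4A comparison recovered 19% and 2% of them. That is a far smaller share of changed copies than was called in KDM4A, which makes the adjusted threshold stricter. These recoveries therefore do not give the recovery in the data, and copies not called may have changed. Alternatives were DESeq2 1.42.0, other sizes, filters, spans extended by 5 kb, a replicate block and leaving out each library. Zones were added after seeing the data. Members and lists were chosen with earlier results of these data known. The named copies were the 5 most abundant in each place and, per comparison and place, the 3 copies that rose most and the 3 that fell most at that threshold, without overlap between groups, with at least 20 reads on average in the higher group and 1 copy per gene. The 5 genes with most copies and up to 4 genes per list with the smallest p were also named. A few results under this rule are not reported here.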

Additional observations from a re-analysis of the deposited data

Results flagged for a closer look

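The effect of deleting the IDR differed between related demethylases by the interaction term of the same fit. For SINE Alu reads outside genes, KDM4A minus KDM4B was -0.58 on the log2 scale, and for the ratio of outside to inside reads it was -0.53. KDM6A minus KDM6B was 0.29 outside, 0.43 inside and -0.15 for the ratio. With sizes from repeat families the KDM6 difference turned to -0.11 outside and was 0.04 inside, not called. The ratios do not depend on sizes.

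Single SINE Alu copies differed no more often than copies of all families. By edgeR at an adjusted p under 0.05, 2006 copies inside and 585 outside differed between KDM4A and KDM4B, or 2.20% and 6.08% (over all families 3.16% and 7.13%). Between KDM6A and KDM6B 1528 inside and 86 outside differed, or 1.68% and 0.893% (2.35% and 1.32%). Of the KDM4 differences, 570 of those outside and 1578 of those inside were lower in KDM4A, and of the KDM6 differences 1493 of those inside were higher in KDM6A.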

How the results depend on the processing

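The fall of SINE Alu reads outside genes in KDM4A kept its direction and call in the 12 alternatives run for it, from -1.37 with ERCC sizes to -0.42 with sizes from families, and the ratios of outside to inside reads in KDM4A and KDM6B did so in 9. The alternatives for zones and, other than ERCC sizes, for differences between demethylases were chosen after seeing the data, and where a result changed the cause was not tested. Values below are log2 changes unless called counts. Sizes from repeat families shifted the sums by 0.30, 0.18, -0.06 and 0.33 in KDM4A, KDM4B, KDM6A and KDM6B, and ERCC sizes by -0.65, -0.19, -0.21 and -0.38 (median gene -0.70, -0.18, -0.21 and -0.38). With sizes from families, inside reads were 0.14 in KDM4A, 0.064 in KDM4B and, not called, -0.024 in KDM6B. Outside reads were 0.040 in KDM4B and 0.061 in KDM6A, neither called, and 0.17 in KDM6B. KDM4A minus KDM4B inside was then 0.076 and KDM6A minus KDM6B outside -0.11, both called, and KDM6A minus KDM6B inside 0.041, not called. By zone these sizes gave KDM4A exons 0.23 and introns 0.13, and KDM4B downstream 0.10, exons 0.093, introns 0.060 and, not called, upstream 0.043. They gave KDM6A downstream 0.073 and exons -0.020, neither called, and KDM6B downstream 0.10, exons 0.15, far 0.28 and upstream 0.28. The intronic Zfp42 copy was 0.0017 in KDM6B, and KDM6B copies called numbered 363 inside and 42 outside.

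With ERCC sizes KDM6A was -0.094 outside and -0.14 inside, and by zone -0.081 downstream, -0.17 in exons, -0.14 far, -0.13 in introns and -0.099 upstream, none of them called. KDM6B was -0.44 far and -0.43 upstream, both called, and KDM4A minus KDM4B inside was -0.51, also called. Copies called numbered 30559 inside and 4374 outside in KDM4A, 3748 inside in KDM4B, 78 and 7 in KDM6A and 17314 and 890 in KDM6B. Polymerase III genes called were 5 in KDM6A and 19 in KDM6B, SINE RNA binding genes 6, 7 and 14 in KDM4B, KDM6A and KDM6B, and silencing genes 13 in KDM6B. Genes that turned were Bdp1 (-0.20), Gtf3c1 (-0.068), Cbx1 (-0.23), Dnmt1 (-0.12) and Ehmt2 (-0.12) in KDM4A, Srp72 (-0.0040) in KDM4B, Polr3b (-0.013) and Srp68 (-0.012) in KDM6A, and Ssb (-0.25) and Cbx1 (-0.054) in KDM6B. Of these turned values only Bdp1 and Cbx1 in KDM4A and Ssb in KDM6B were called.

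KDM6A inside passed the threshold with median-ratio sizes (0.082) and with only the copies of the set (0.078), as did introns (0.087) and upstream (0.12) with median-ratio sizes. With spans extended by 5 kb, outside reads were 0.11 in KDM6A and -0.080 in KDM6B, neither called, the KDM4B ratio was -0.21 and called, and copies called outside numbered 706, 149, 2 and 38 in KDM4A, KDM4B, KDM6A and KDM6B. KDM6A copies numbered 100 and 12 with DESeq2 and 7 outside without filterByExpr, and KDM6B copies 1525 and 63 in a fit of its 4 libraries. Over the 4 demethylases, IDR-deleted minus FL turned to 0.331 percentage points for the share outside without KDM4A (exact permutation p = 0.0833) and to 0.208 for the SINE Alu share of repeat reads without KDM6B (exact permutation p = 0.0278).

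Replicate numbers were treated as names, since the labels tie them to no shared culture or day and deviations of same-numbered libraries correlated at 0.12, 0.13, 0.14 and -0.0026 in KDM4A, KDM4B, KDM6A and KDM6B, with 2 pairs each, so a shared effect of the number in some of them was not settled. With the replicate block, KDM6A inside passed the threshold (0.077), copies called numbered 84 inside and 7 outside in KDM6A, and SINE RNA binding genes 5 in KDM6B.

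Leaving out each library in turn, with the spread of the other groups and for copies the trended dispersion of the full fit, gave -0.74 to -0.70 outside and -0.18 to -0.14 inside in KDM4A, -0.15 to -0.12 and -0.14 to -0.091 in KDM4B, 0.10 to 0.14 and 0.047 to 0.11 in KDM6A, and -0.17 to -0.16 and -0.39 to -0.33 in KDM6B. The ratios ran from -0.56 to -0.55, -0.032 to -0.017, 0.034 to 0.055 and 0.16 to 0.22. KDM6A outside was not called without FL replicate 1 (0.11) or IDR-deleted replicate 2 (0.10), and inside was called without IDR-deleted replicate 1 (0.11). KDM4A zones ran from -0.81 to -0.78 downstream, -0.085 to -0.054 in exons, -0.72 to -0.65 far, -0.19 to -0.16 in introns and -0.59 to -0.49 upstream. KDM4B zones ran from -0.085 to -0.061, -0.11 to -0.058, -0.42 to -0.37, -0.14 to -0.096 and -0.15 to -0.11 in the same order. KDM6A zones ran from 0.12 to 0.15, 0.011 to 0.069, 0.048 to 0.10, 0.052 to 0.11 and 0.084 to 0.15, and KDM6B zones from -0.24 to -0.22, -0.22 to -0.15, -0.067 to -0.050, -0.42 to -0.36 and -0.077 to -0.025. Exons in KDM4A lost their call without FL replicate 2 (-0.054) or IDR-deleted replicate 1 (-0.058). In KDM4B, exons lost it without FL replicate 1 (-0.086), FL replicate 2 (-0.083) or IDR-deleted replicate 1 (-0.058), downstream without FL replicate 1 (-0.071) or IDR-deleted replicate 1 (-0.061), and upstream without FL replicate 2 (-0.11) or IDR-deleted replicate 1 (-0.12). Introns (0.11) and upstream (0.15) in KDM6A were called without IDR-deleted replicate 1. Copies called ran from 7442 to 8050 inside and 1243 to 1469 outside in KDM4A, 729 to 900 and 139 to 180 in KDM4B, 6 to 14 and 0 to 2 in KDM6A, and 1041 to 1873 and 47 to 84 in KDM6B. Of 332 fits of named copies without a library, 82 lost the call. The simulated KDM4A comparison recovered 19% of 4-fold changes, with a far smaller share of changed copies than was called in the data. What depth allows for single copies here was therefore not tested.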
